A study of Mus musculus with 20 samples.

Results

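The genes of xenobiotic metabolism, which oxidise, hydrolyse, conjugate and export foreign compounds, were followed in the colon of 20 mice. The list was chosen by symbol, with earlier results of these data known. It holds 54 genes out of 32991 genes with a transcript in the deposited tables. It has 22 oxidation genes, 7 hydrolysis genes, 18 conjugation genes, 4 efflux transporters and 3 receptors that regulate such genes. A value was found for 53 of them, and Cyp2c66 is not analysed here. The level of a gene in a mouse is the sum of FPKM (fragments scaled to transcript length in kilobases and to library size) over its Ensembl transcripts. Male C57BL/6 mice formed 4 groups of 5, with 1 RNA-seq library per mouse, and their age is not given in the sources used here. Control mice received double distilled water by gavage for 91 days, and PZH mice received PZH (Pien Tze Huang, a compound remedy of Chinese medicine) at 250 mg/kg/d for the same time. AOM/DSS mice (labelled Model) had 1 intraperitoneal injection of 12.5 mg/kg azoxymethane (AOM), a carcinogen, followed by 4 cycles of 5 days of 2% dextran sodium sulfate (DSS), which injures the colon epithelium, and they had water by gavage. PZH + AOM/DSS mice (labelled Model + PZH) received both. The 4 groups allow the question of how the colon's drug-handling genes differ in colitis-associated cancer, and whether PZH goes with a different level of them in mice with or without it.

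Foreign compounds are commonly handled in steps. Cytochromes P450 (Cyp genes), fed with electrons by the reductase Por, oxidise them, carboxylesterases (Ces) and epoxide hydrolases (Ephx) cleave them, and UDP-glucuronosyltransferases (Ugt), sulfotransferases (Sult) and glutathione S-transferases (Gst, Mgst) attach a polar group. ATP-driven pumps such as P-glycoprotein (Abcb1a, Abcb1b), the breast cancer resistance protein (Abcg2) and Mrp2 (Abcc2) move the products out of the cell. The nuclear receptors PXR (Nr1i2) and CAR (Nr1i3) and the aryl hydrocarbon receptor (Ahr) sense ligands and switch many of these genes on, and in the intestine absorptive epithelial cells are a main site of this system.

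From the steps between low values, the libraries corresponded to roughly 15.4 to 19.5 M fragments per mouse. At that depth, 1 fragment on a transcript of 2 kb is worth 0.0256 to 0.0325 FPKM. The label gives colon, although the extraction text speaks of the abdominal aorta. The summed level of 8 absorptive colonocyte genes was 1067 to 3959 FPKM over all mice, whereas the 4 artery genes with a value summed to 7.42 to 32.0 FPKM. The 6 hepatocyte genes summed to 13.5 to 54.7 FPKM, most of it from Ttr (7.15 to 51.8 FPKM), with Alb at 0.173 to 16.7 FPKM and Fgb at 0.0481 FPKM or less. Control mice 17 and 50 stood apart with 340 and 287 FPKM over 6 squamous epithelium genes, against 0.824 to 1.64 FPKM in the other Control mice. Mouse 35 of the PZH + AOM/DSS group had 3207 FPKM over 5 Paneth cell genes, against 30.4 to 945 FPKM in the other mice of its group and 1178 to 4278 FPKM in AOM/DSS mice. Epcam, an epithelial gene, was listed at 0 in every Control mouse and at 553 and 718 FPKM in 2 PZH mice, so single genes in these tables can be missed in a library.

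The proximal promoters of 5 members are shown because these genes carry the differences described next. Cyp2c55 and Sult1a1 had the largest falls, Mgst3 was the most abundant member in Control mice, and Abcc2 and Cyp2b10 had the largest rises. Each run ends just before the first annotated exon and reads 5′ to 3′ along the gene's strand (RefSeq, GRCm38.p6). Capitals mark letters that match GCGTG (the aryl hydrocarbon receptor core) or TTTATNG (a CDX motif) on either strand.
Cyp2c55, chr19:39006769-39007018, plus strand: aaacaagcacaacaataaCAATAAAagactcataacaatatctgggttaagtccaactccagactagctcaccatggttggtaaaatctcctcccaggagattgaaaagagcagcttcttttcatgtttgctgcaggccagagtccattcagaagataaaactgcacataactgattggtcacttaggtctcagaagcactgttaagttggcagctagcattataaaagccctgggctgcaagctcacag
Sult1a1, chr7:126676433-126676668, minus strand: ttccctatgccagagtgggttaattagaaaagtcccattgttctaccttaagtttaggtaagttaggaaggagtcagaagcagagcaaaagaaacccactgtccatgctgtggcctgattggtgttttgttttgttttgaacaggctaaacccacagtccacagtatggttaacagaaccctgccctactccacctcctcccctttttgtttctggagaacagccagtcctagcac
Mgst3, chr1:167393842-167394091, minus strand: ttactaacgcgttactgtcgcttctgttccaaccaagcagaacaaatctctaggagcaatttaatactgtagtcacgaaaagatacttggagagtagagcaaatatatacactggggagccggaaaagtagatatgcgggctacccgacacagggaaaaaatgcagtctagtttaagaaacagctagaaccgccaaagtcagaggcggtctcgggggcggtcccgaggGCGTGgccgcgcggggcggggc
Abcc2, chr19:43782058-43782191, plus strand: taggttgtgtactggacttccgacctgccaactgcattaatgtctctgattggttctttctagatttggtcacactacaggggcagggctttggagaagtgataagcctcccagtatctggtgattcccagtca
Cyp2b10, chr7:25897408-25897619, plus strand: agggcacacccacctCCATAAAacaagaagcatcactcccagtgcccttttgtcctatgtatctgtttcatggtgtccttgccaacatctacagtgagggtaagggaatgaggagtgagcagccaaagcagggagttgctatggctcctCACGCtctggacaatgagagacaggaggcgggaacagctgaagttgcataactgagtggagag
Over the 250 bases before the RefSeq start, which were matched for 50 of the 54 members, GCGTG was present on either strand in 9 of 50 members and in 28.2% of all 32851 promoters. It was found in 3 of the 21 promoters of members that were lower in AOM/DSS mice, in 1 of 3 that were higher and in 5 of the other 26. The letters TTTATNG were present in 4 members (8.0%) and in 9.81% of all promoters. The antioxidant response core TGACNNNGC was present in 2 members (4.0%), Mgst1 and Abcc2, and in 10.2% of all promoters, with the Abcc2 match inside an annotated exon that is not shown. AGTTCA, a nuclear receptor element, was present in 3 members (6.0%, against 11.8% of all promoters), CAAAGTCCA (an HNF4 motif) in 2 (4.0%, against 0.384%) and the HNF1 motif in 1 (2.0%, against 0.371%). These matches describe the letters in the window and were not tested as sites.

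In Control mice the members ranged from 0 to 633 FPKM. The mean level was under 0.5 FPKM for 7 members, from 0.5 to 10 FPKM for 13, from 10 to 100 FPKM for 23 and above that for 10. Mgst3, a membrane glutathione transferase, led with 488 ± 96.2 FPKM (SD, n = 5), followed by Adh1, an alcohol dehydrogenase, with 399 ± 206 FPKM and by Gsto1 with 335 ± 45.0 FPKM. The SD of Adh1 spans both neighbours in this order. Among the P450 genes Cyp2c55 alone made up 52.8 to 65.9% of the summed level of all Cyp members in Control mice. The members Cyp3a11, Cyp3a25, Cyp1b1, Ugt2b5 and Ugt2b36 stayed under 1 FPKM in each of the 20 mice. In AOM/DSS mice only 4 members kept a mean of at least 100 FPKM, and these were Adh1, Mgst3, Gsto1 and Gstp1.

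Between AOM/DSS and Control mice, more xenobiotic genes were called lower than higher. The called conjugation enzymes were all lower, and the called oxidation enzymes went both ways. Of 53 members with a value, 45 passed the filter of 0.5 FPKM in at least 5 of the 10 mice. At an adjusted p under 0.05 (limma on log2(FPKM + 1), Benjamini-Hochberg over all 15812 genes tested), 22 members were lower, 4 were higher and 19 were not called. Lower members thus made up 48.9% of those tested, against 7.23% of all genes tested, while 16.4% of all genes tested were higher. The median log2 fold change was -0.76 over the 45 members and 0.09 over all genes. The 5 mice of each group did not overlap in 18 members that were lower and 4 that were higher, against 5.43% of all genes that were lower in this way and 18.4% in either direction. By a fold change above 2 with an unadjusted p under 0.05, 16 members were lower and 2 higher, against 1.86% and 5.85% of all genes. These 2, Cyp2b10 and Abcc2, passed the filter only because AOM/DSS mice were high, so they could only be called higher. Both are also among the 4 called higher and the 4 higher without overlap, so these counts of higher members rest partly on the filter. Because the list was chosen with earlier results of these data known, these shares describe it and are no independent test. All fold changes given as log2 are on the log2(FPKM + 1) scale, which understates changes of low genes.

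**Figure D1:**
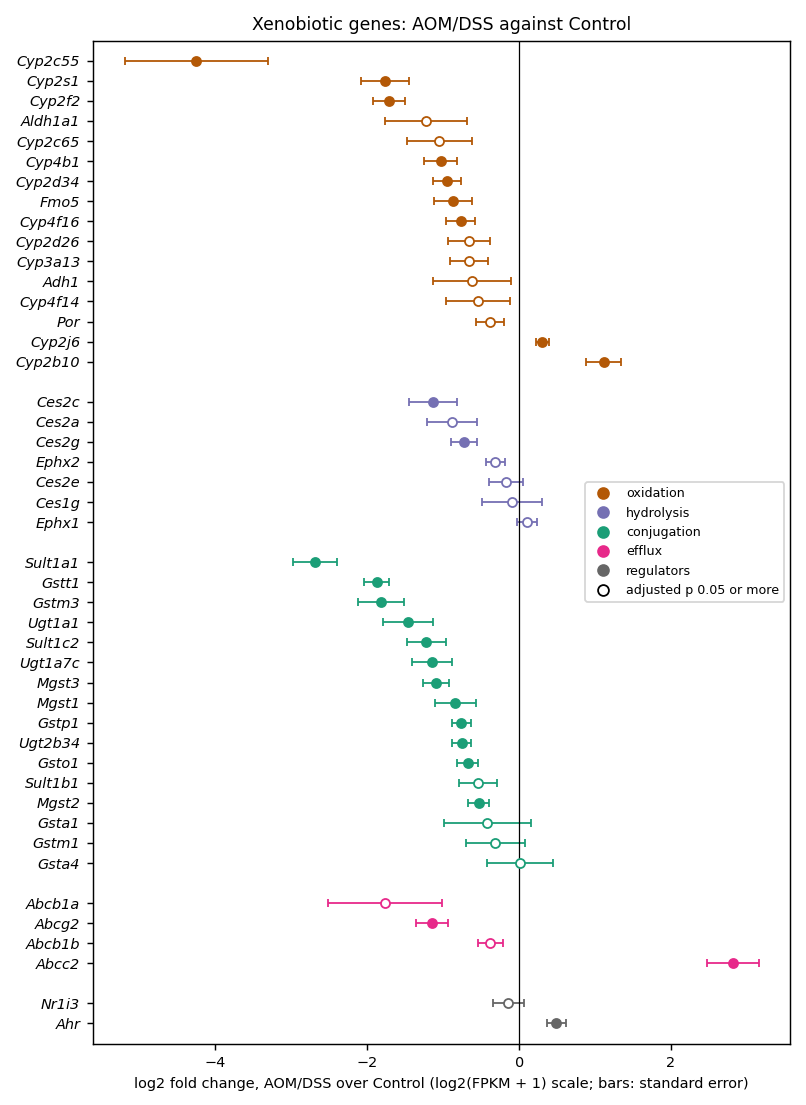
Log2 fold change of each of the 45 tested members, AOM/DSS over Control, on the log2(FPKM + 1) scale, with bars for 1 standard error, grouped by role. Filled points have an adjusted p under 0.05, and 22 of them lie left of 0 and 4 right of it.

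Among the oxidation genes, 7 of the 16 tested fell and 2 rose. Cyp2c55 is a P450 of the Cyp2c family that is strongly expressed in the intestine and oxidises fatty acids. It lies on chromosome 19 of GRCm38 (39007019 to 39042693, plus strand). Its level was 374, 305, 364, 211 and 329 FPKM in Control mice 17, 37, 41, 48 and 50, and 2.33, 76.6, 32.2, 1.20 and 60.4 FPKM in AOM/DSS mice 23, 30, 33, 44 and 52. Every AOM/DSS mouse lay below every Control mouse, and 2 of them were at a few FPKM. The means were 316.5 ± 65.2 and 34.5 ± 33.9 FPKM (SD, n = 5), and the log2 fold change was -4.25 (SE 0.94, limma adjusted p = 0.00878).

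Cyp2f2, a P450 best known from the airway epithelium, was tight in Control mice at 16.0 to 17.9 FPKM. In AOM/DSS mice it was 2.998, 8.98, 3.76, 4.40 and 3.89 FPKM, all below the Control range (log2 fold change -1.71, SE 0.21, limma adjusted p = 0.000333). Cyp2s1, an extrahepatic P450 of epithelia, was 38.5 to 73.3 FPKM in Control mice and 8.71 to 29.4 FPKM in AOM/DSS mice, again without overlap (log2 fold change -1.77, SE 0.31, limma adjusted p = 0.00271). Among the other P450 genes, Cyp4f16 (-0.77, adjusted p = 0.0157), Cyp2d34 (-0.95, adjusted p = 0.00475) and Cyp4b1 (-1.04, adjusted p = 0.00739) also fell. Cyp2d34 and Cyp4b1 were low throughout, with Control means of 3.81 and 2.46 FPKM. Fmo5, a flavin monooxygenase, fell by 0.87 on the log2 scale (adjusted p = 0.0263).

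The 2 oxidation genes that rose were Cyp2b10 and Cyp2j6. Cyp2b10, the classic target gene of CAR in mouse liver, was listed at 0 in 3 Control mice and at 0.694 and 0.611 FPKM in Control mice 17 and 50, and it was 1.56, 1.46, 0.732, 2.61 and 2.27 FPKM in AOM/DSS mice. The log2 change was 1.11 (SE 0.23, limma adjusted p = 0.00663), and like Abcc2 the gene passed the filter only because AOM/DSS mice were high. Cyp2j6, an intestinal P450, rose from 14.5 ± 0.978 to 18.1 ± 0.940 FPKM (log2 fold change 0.30, adjusted p = 0.028). Values of Adh1, Aldh1a1 and Cyp4f14 varied widely within groups: Adh1 was 85.8 to 633 FPKM in Control mice and 123 to 407 FPKM in AOM/DSS mice (adjusted p = 0.423). Por, on which every microsomal P450 depends, was 59.3 ± 17.2 and 43.9 ± 5.15 FPKM (adjusted p = 0.168). The summed level of the Cyp members was 399 to 568 FPKM in Control mice and 85.2 to 192 FPKM in AOM/DSS mice, and the share of Cyp2c55 in it was 1.40 to 40.5% in AOM/DSS mice.

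**Figure D2:**
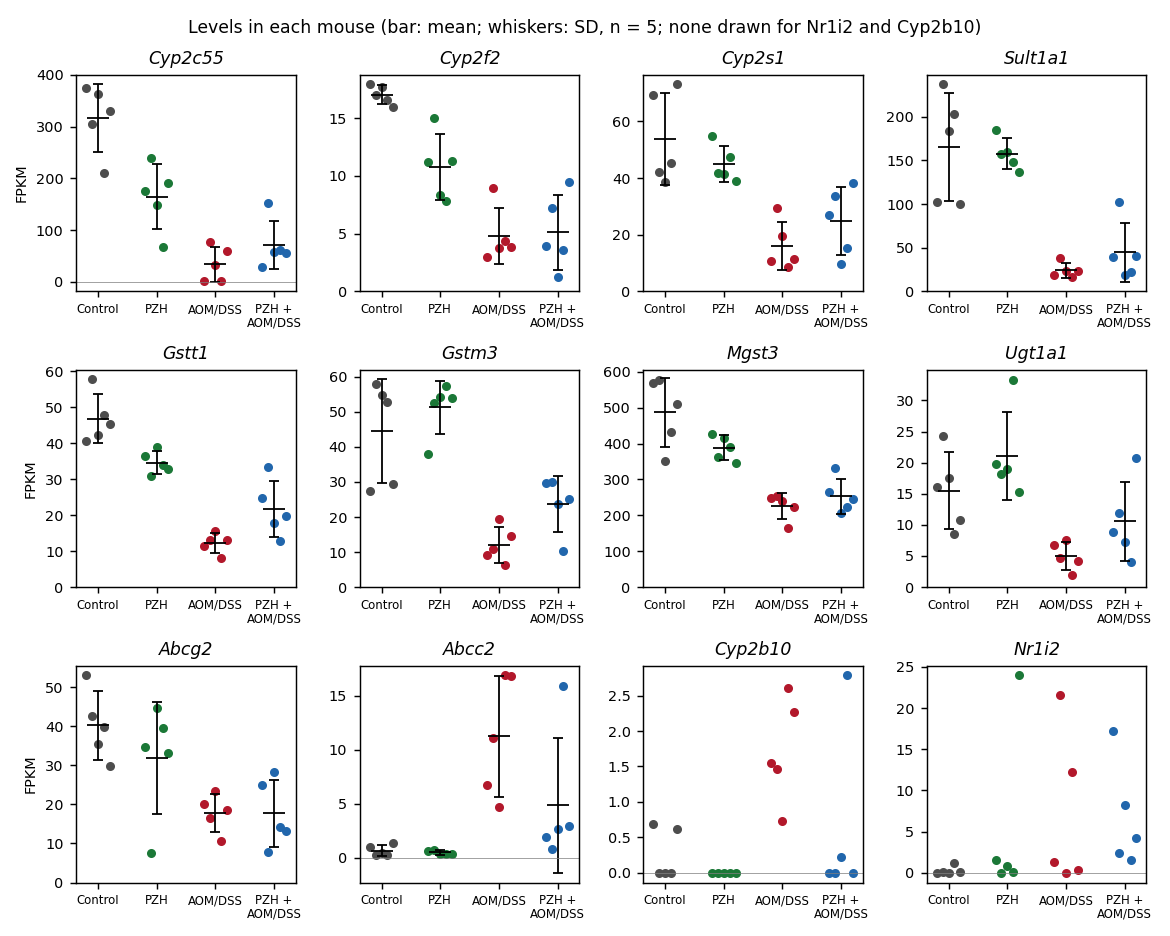
Level in FPKM (y axis) of 12 members in each of the 20 mice by group, with the mean and SD of 5 mice except for Nr1i2 and Cyp2b10, which are listed at or near 0 in many mice. The first 9 genes are lower in AOM/DSS than in Control mice, Abcc2 and Cyp2b10 are higher, and mouse 35 is the high point of Abcc2 and Cyp2b10 in the PZH + AOM/DSS group.

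Conjugation was the role with the most falls, 12 of 16 tested with 0 rises. Sult1a1, a phenol sulfotransferase, had the largest log2 fall among them. It was 102, 237, 184, 203 and 99.9 FPKM in Control mice and 19.0, 37.8, 23.6, 16.6 and 23.9 FPKM in AOM/DSS mice. The lowest Control mice were 17 and 50, and they still exceeded every AOM/DSS mouse. The log2 fold change was -2.69 (SE 0.29, limma adjusted p = 0.000115). Sult1c2 also fell (19.8 ± 6.45 to 7.90 ± 2.59 FPKM, log2 fold change -1.22, adjusted p = 0.00624), while Sult1b1 was 111 ± 41.2 and 73.7 ± 16.7 FPKM (adjusted p = 0.151).

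Of the 10 glutathione transferases tested, 7 fell and 3 were not called. Gstt1, of the theta class, had the lowest adjusted p of the list (2.94e-05, limma). Its level was 40.7, 57.9, 42.2, 47.95 and 45.4 FPKM in Control mice and 11.3, 12.98, 15.5, 8.07 and 13.01 FPKM in AOM/DSS mice, which left a wide gap between the groups (log2 fold change -1.88, SE 0.16). Gstm3, of the mu class, was 27.5 to 58.0 FPKM in Control mice and 6.27 to 19.6 FPKM in AOM/DSS mice (log2 fold change -1.82, adjusted p = 0.00195). The abundant cytosolic forms changed less, with log2 fold changes of -0.76 for Gstp1 (adjusted p = 0.00211) and -0.68 for Gsto1 (adjusted p = 0.00501). The membrane-bound Mgst3 was 570, 576, 351, 432 and 511 FPKM in Control mice and 249, 253, 241, 164 and 224 FPKM in AOM/DSS mice, without overlap (log2 fold change -1.10, SE 0.17, adjusted p = 0.00119). Mgst2 (-0.54, adjusted p = 0.0158) and Mgst1 (-0.84, adjusted p = 0.0435) also fell. Gsta1, Gsta4 and Gstm1 were not called. For Gsta4, which acts on lipid peroxidation products, Control mice 17 and 50 had 88.1 and 97.3 FPKM, the other Control mice 19.3 to 34.2 FPKM and AOM/DSS mice 34.6 to 55.8 FPKM.

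Of the glucuronosyltransferases, Ugt1a1, the bilirubin-conjugating form, was 8.60 to 24.3 FPKM in Control mice and 1.92 to 7.54 FPKM in AOM/DSS mice (log2 fold change -1.46, SE 0.33, limma adjusted p = 0.0093). Ugt1a7c (-1.15, adjusted p = 0.0106) and Ugt2b34 (-0.76, adjusted p = 0.00168) fell as well, each without overlap between groups. The Ugt1a genes share their last exons, and reads in near-identical Gsta, Gstm, Gstp, Cyp2c, Ces2 and Abcb1 family members can be split by the quantification, so values of single family members are uncertain to that extent. Summed over the Ugt members, which avoids the split inside the list, the level was 175 to 245 FPKM in Control mice and 88.9 to 152 FPKM in AOM/DSS mice. The corresponding sums over the Gst members were 669 to 1015 and 404 to 627 FPKM.

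Of the 7 hydrolysis genes tested, 2 were called, both lower. Ces2c, a carboxylesterase of the gut, fell from 113 ± 39.1 to 51.3 ± 19.2 FPKM (log2 fold change -1.14, limma adjusted p = 0.0236), with overlapping mice. Ces2g fell from 16.7 ± 0.959 to 9.93 ± 2.63 FPKM without overlap (adjusted p = 0.0102). Ces2e stayed uncalled at 66.7 ± 16.8 and 58.7 ± 15.1 FPKM, and the microsomal epoxide hydrolase Ephx1 was 17.2 ± 1.83 and 18.7 ± 3.41 FPKM (adjusted p = 0.640).

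Efflux pumps moved in opposite directions. Abcc2, the apical pump for glutathione and glucuronide conjugates, was 0.986, 0.209, 0.415, 0.243 and 1.32 FPKM in Control mice and 6.72, 11.1, 4.70, 16.9 and 16.8 FPKM in AOM/DSS mice. The lowest AOM/DSS mouse was above the highest Control mouse, and the log2 fold change was 2.81 (SE 0.34, limma adjusted p = 0.00027). Abcc2 passed the filter only because AOM/DSS mice were high. Its call and separation therefore had to be in this direction and support nothing further. Abcg2, which exports sulfate conjugates and porphyrins, was 53.3, 42.7, 35.4, 39.8 and 29.96 FPKM in Control mice and 20.1, 16.5, 23.6, 10.6 and 18.6 FPKM in AOM/DSS mice (log2 fold change -1.15, SE 0.21, adjusted p = 0.00305). The P-glycoprotein gene Abcb1a differed by 2.36-fold in the means (73.0 and 31.0 FPKM), but its AOM/DSS mice ranged from 4.17 to 73.4 FPKM and it was not called (adjusted p = 0.114).

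Of the receptors, Ahr rose from 6.04 ± 0.804 to 8.88 ± 0.997 FPKM (log2 fold change 0.49, limma adjusted p = 0.0158), with every AOM/DSS mouse above every Control mouse. Nr1i3 was 1.21 ± 0.355 and 1.05 ± 0.516 FPKM (adjusted p = 0.663). Nr1i2 did not pass the filter in this comparison, and its values were erratic in every group. It was 0.0359, 0.0482, 0.0252, 1.18 and 0.0919 FPKM in Control mice and 1.29, 21.6, 0.0204, 12.2 and 0.295 FPKM in AOM/DSS mice. Cyp1a1, the usual readout of Ahr, was also untested here. It was 1.80 and 1.19 FPKM in Control mice 17 and 50, which stood apart in squamous epithelium genes. In the other Control mice it was 0.133 to 0.238 FPKM, and in AOM/DSS mice 0 to 0.174 FPKM.

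**Figure D3:**
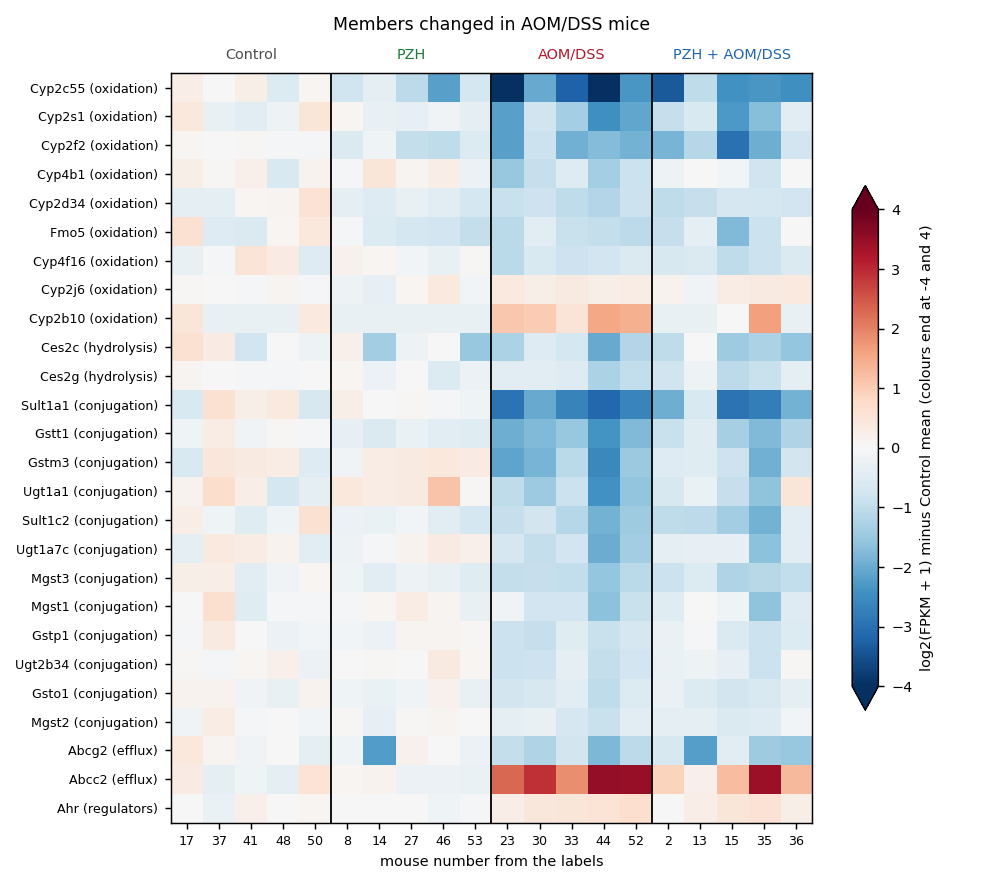
Log2(FPKM + 1) minus the Control mean for the 26 members called in AOM/DSS against Control (rows, with role) in each of the 20 mice (columns, by group). Blue is below and red above the Control mean, and colours end at -4 and 4. For Abcc2, mouse 35 of PZH + AOM/DSS lay within the AOM/DSS range, and mice 2, 13, 15 and 36 lay below it. For Sult1a1, mouse 15 of that group was lower than mouse 35 (19.3 and 22.2 FPKM).

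Markers of several cell types differed between the same groups. In bulk tissue, fewer cells of a type and less RNA per cell cannot be told apart. The summed level of the 8 absorptive colonocyte markers was 2748 to 3959 FPKM in Control mice and 1067 to 1891 FPKM in AOM/DSS mice, and 4 of the 8 were called lower. Leukocyte markers summed to 180 to 391 and 411 to 905 FPKM (5 of 9 called higher), and Paneth cell markers to 3.30 to 21.7 and 1178 to 4278 FPKM (5 of 5 higher). Smooth muscle markers summed to 2256 to 5198 and 1001 to 1746 FPKM (7 of 7 tested lower). Their part in the members' differences was not tested. Of the 7 general epithelial markers tested, 1 was called lower (Krt19). With each mouse centred on all 8 epithelial markers, 14 members were called, all lower, and Cyp2j6 (-0.49) and Ahr (-0.30) turned downwards. That centring also lowered the median of all genes, so the direction of single members cannot be read from it. Among its markers, Krt8 spanned 0.105 to 3071 FPKM within Control mice. Epcam had no signal in Control mice, whereas AOM/DSS mice 23 and 33 reached 844 and 672 FPKM and the rest of that group had none. Centring each mouse on 6 of the 8 epithelial markers (chosen after seeing the data) gave 25 called members, 21 lower and 4 higher. All 25 were among the 26 called without centring.

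Control mice 17 and 50 differed from the other Control mice in several members, which bears on each comparison with Control. Of the 46 members with a Control mean of at least 0.5 FPKM, both mice lay above the other 3 in 11 (23.9%, against 12.5% of all genes at that level) and below them in 7 (15.2%, against 15.3%). Members above included Gsta1 (71.4 and 56.7, against 10.3 to 20.1 FPKM), Cyp2c65, Ces1g, Fmo5 and Por, and members below included Sult1a1, Gstm3 and Ugt1a7c. Without both mice (an alternative added after seeing the data), 22 members were called in AOM/DSS against Control, 18 lower and 4 higher. The calls of Cyp2j6, Ces2c, Ces2g, Mgst1 and Fmo5 were then lost, and Gsta4 was newly called higher (0.76, limma adjusted p = 0.0447). Those of Cyp2j6, Ces2c, Mgst1 and Fmo5 were also lost when single mice were left out.

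PZH in mice without AOM/DSS went with no called member. Of 43 members tested against Control, 0 had an adjusted p under 0.05 (limma), where 0.00645% of all 15506 genes did. By p before adjustment, 8 members were lower and 1 higher at the same threshold, which 8.84% of all genes passed in either direction. Cyp2c55 was 176, 239, 149, 68.3 and 192 FPKM in PZH mice 8, 14, 27, 46 and 53, so 4 of the 5 PZH mice lay below the lowest Control mouse. Its mean of 165 ± 63.2 FPKM compares with 316.5 ± 65.2 FPKM in Control mice (log2 fold change -1.02, SE 0.30, adjusted p = 0.477), and it was the only member past a fold change of 2 with an unadjusted p under 0.05 (0.322% of all genes were lower by this rule). In 2 members, Cyp2f2 and Gstt1, the groups did not overlap, against 0.896% of all genes. Cyp2f2 was 11.2, 15.01, 8.39, 7.85 and 11.3 FPKM (adjusted p = 0.413), and Gstt1 was 36.6, 30.8, 38.9, 34.0 and 32.96 FPKM (adjusted p = 0.429). Cyp4f14, which acts on leukotrienes, pointed the other way with 55.1 ± 20.7 against 30.2 ± 16.0 FPKM (adjusted p = 0.545). Control mice 17 and 50 bear on this, with 20.8 and 9.77 FPKM, against 28.7 to 49.6 FPKM in the other Control mice. Without Control mice 17 and 50, no member passed the fold rule.

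In mice with AOM/DSS, PZH again went with no called member when all 10 mice were compared (0 of 46 tested, against 0.00629% of all 15888 genes). At an unadjusted p under 0.05, PZH + AOM/DSS mice had 6 higher and 4 lower members, and 11.7% of all genes passed. Mouse 35 of the PZH + AOM/DSS group lay within the AOM/DSS range in 40 of the 46 members with an AOM/DSS mean of at least 0.5 FPKM. That count was not made for the 4 other mice of the group or over all genes, so it sets no contrast between them. Abcc2 was 1.90, 0.7997, 2.68, 15.9 and 2.91 FPKM in PZH + AOM/DSS mice 2, 13, 15, 35 and 36, so all but mouse 35 lay below the lowest AOM/DSS mouse. The log2 fold change was -1.41 (SE 0.56, limma adjusted p = 0.384). Cyp2b10 was listed at 0 in mice 2, 13 and 36 and was 0.223 and 2.78 FPKM in mice 15 and 35. Paneth cell markers were high in the same mouse 35, as given above, and their part in these values was not tested.

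Among members that were low in AOM/DSS mice, Gstt1 was 24.8, 33.3, 17.8, 12.9 and 19.7 FPKM in the PZH + AOM/DSS mice, and again all but mouse 35 lay above the highest AOM/DSS mouse (log2 fold change 0.75, SE 0.24, adjusted p = 0.356). Gstm3 was 29.6, 29.9, 23.6, 10.4 and 25.2 FPKM (0.93, adjusted p = 0.362) and Ugt2b34 was 113, 118, 107, 74.1 and 140 FPKM (0.44, adjusted p = 0.378), with the same mouse low. Cyp4b1 was 1.94, 2.38, 2.14, 0.944 and 2.35 FPKM (0.81, adjusted p = 0.356). Cyp2c65 passed the fold rule upwards with 4.08, 3.34, 12.6, 1.94 and 6.09 FPKM against 0.308 to 3.20 FPKM in AOM/DSS mice (1.14, adjusted p = 0.372), where 0.390% of all genes did. Cyp2c55 did not separate, since its 5 values of 29.4, 153, 57.6, 61.5 and 56.1 FPKM overlapped the AOM/DSS mice (1.94, SE 0.99, adjusted p = 0.469). Cyp2f2 was nearly equal in both groups, at 5.12 ± 3.24 and 4.81 ± 2.39 FPKM. Of the 16 conjugation genes tested, 0 were called, and their median log2 fold change was 0.35, against -0.04 over all genes. The summed absorptive colonocyte markers were 2278, 3511, 2909 and 3237 FPKM in mice 2, 13, 15 and 36, all above the highest AOM/DSS mouse (1891 FPKM), and 1113 FPKM in mouse 35. Of the 8 markers, 0 were called in this comparison. The sum includes Ceacam1, at 531, 940, 1057 and 804 FPKM in mice 2, 13, 15 and 36, above its Control range of 258 to 437 FPKM. No other marker of the list exceeded its Control range in all of these mice. The part of these markers in the members' differences was not tested. Leaving out mouse 35, which was done because each mouse was left out in turn, gave 7 calls: Cyp2b10 (-1.33), Gsta4 (-1.09) and Abcc2 (-1.92) lower and Cyp4b1 (0.96), Ugt2b34 (0.57), Gstm3 (1.19) and Gstt1 (0.91) higher, with limma adjusted p from 0.00771 to 0.0440. In the same comparison 4.41% of all genes were called lower and 0.761% higher. Cyp2b10 passed the filter there only through the AOM/DSS mice, where it was high. Leaving out any other mouse gave 0 calls, so the comparison depends on 1 mouse.

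**Figure D4:**
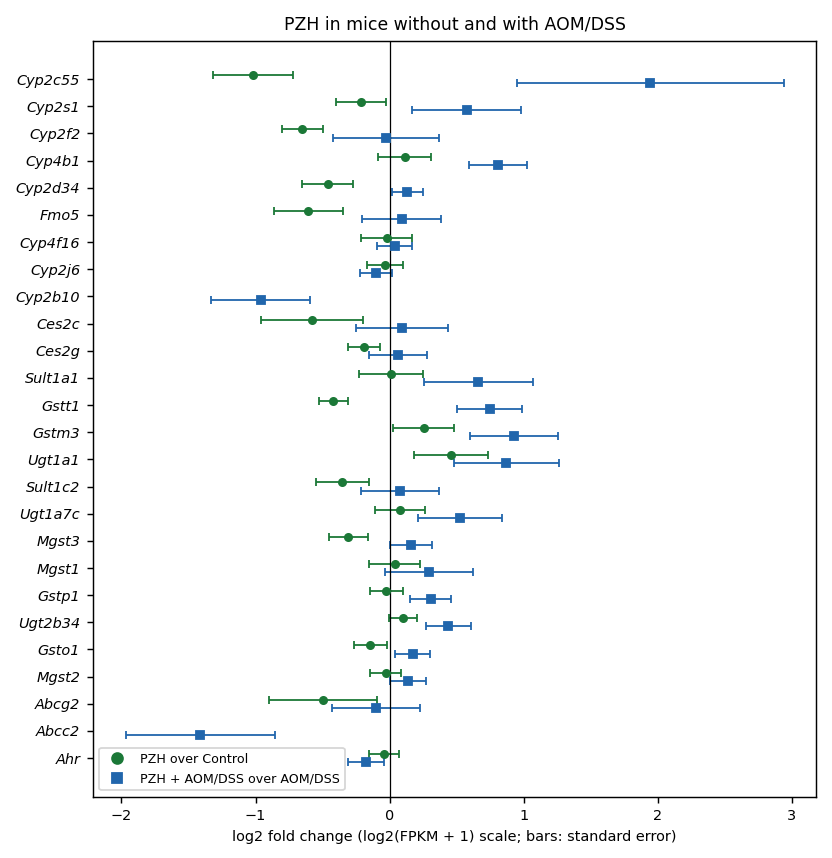
Log2 fold change (log2(FPKM + 1) scale, bars for 1 standard error) of PZH over Control (circles) and of PZH + AOM/DSS over AOM/DSS (squares) for the 26 members called in AOM/DSS against Control. No point has an adjusted p under 0.05, and Cyp2b10 and Abcc2 were not tested without AOM/DSS.

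Whether the difference with PZH was itself different in mice with AOM/DSS was tested by the interaction over all 20 mice. It was called for 0 of 47 members (limma, 0.0118% of all 16936 genes). Before adjustment 6 members were above 0 and 1 below at that threshold, and 10.3% of all genes passed. The lowest p was that of Gstt1, for which the interaction was 1.16 (SE 0.27, limma adjusted p = 0.331), followed by Cyp2c65 (2.07, SE 0.59, adjusted p = 0.350). Control mice 17 and 50 had 8.91 and 8.95 FPKM of Cyp2c65, against 1.78 to 3.13 FPKM in the other Control mice. PZH mice had 1.35 to 3.14 FPKM, so these Control mice bear on its interaction with and without mouse 35. Without mouse 35, 4 members were called: Gstt1 (1.32), Cyp2c65 (2.31), Abcc2 (-1.81) and Cyp2b10 (-1.04). In that fit 0.339% of all genes were called above 0 and 2.49% below. Cyp2b10 would not have passed the filter there without the AOM/DSS mice, where it was high, so its call supports nothing further.

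PZH + AOM/DSS mice were also compared with mice without AOM/DSS. Both comparisons share the PZH + AOM/DSS mice, and the first shares the Control mice with those above. Against Control, 5 of 45 members were lower (11.1%, against 0.871% of all genes) and 1 higher (1.55% of all genes). The lower ones were Cyp2c55 (-2.31, limma adjusted p = 0.013), Sult1a1 (-2.03, adjusted p = 0.0361), Cyp2f2 (-1.74, adjusted p = 0.0294), Gstt1 (-1.13, adjusted p = 0.028) and Mgst3 (-0.94, adjusted p = 0.0267). In 9 lower members the groups did not overlap, against 2.59% of all genes, and in 1 higher, against 4.18%. Sult1a1 was 39.7, 102, 19.3, 22.2 and 41.2 FPKM in PZH + AOM/DSS mice, where mouse 13 reached the lowest Control mice. Mgst3 was 264, 331, 206, 222 and 244 FPKM, all below Control. The member called higher was Nr1i2 (adjusted p = 0.0356), at 17.2, 2.35, 8.27, 1.62 and 4.22 FPKM. It passed the filter only through these 5 mice, so its call had to be in this direction and supports nothing further. PZH mice, at 1.60, 0.0241, 0.842, 0.0517 and 23.96 FPKM, show how far the listed values of this gene spread within a group. Single genes can be missed in a library, as given above for Epcam, so this spread need not be a difference between mice. Without Control mice 17 and 50, 0 members were called in this comparison, and with single mice left out the count ran from 1 (without Control mouse 17, 48 or 50) to 8 (without PZH + AOM/DSS mouse 13).

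Against PZH mice, 4 of 45 members were lower in PZH + AOM/DSS mice and 0 higher, where 0.678% of all 15636 genes were lower and 1.74% higher. These were Sult1a1 (137 to 185 FPKM in PZH mice, log2 fold change -2.04, limma adjusted p = 0.0283), Gstm3 (-1.15, adjusted p = 0.0456), Cyp4f16 (-0.71, adjusted p = 0.0268) and Mgst3 (-0.63, adjusted p = 0.042). All 4 were without overlap between the groups, which 7 members were in this direction (2.37% of all genes). Abcc2 was higher without overlap (5.00% of all genes). It passed the filter there only through the PZH + AOM/DSS mice, so this separation had to be upwards and supports nothing further. With single mice left out, the count ran from 0 (without PZH mouse 14, 27 or 53 or PZH + AOM/DSS mouse 15) to 6 (without PZH + AOM/DSS mouse 13).

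Other genes of the pathway were taken from a list of 127 further enzymes, transporters and cofactors, 73 of which were tested in AOM/DSS against Control. Of these, 26 were lower and 7 higher, with a median log2 fold change of -0.37. Of all 15812 genes tested, 7.23% were lower and 16.4% higher. This list too was chosen with earlier results of these data known. The largest falls among genes with a mean of at least 2 FPKM in a group were those of the carboxylesterase Ces1d (18.8 ± 3.03 to 4.32 ± 1.51 FPKM, log2 fold change -1.93, limma adjusted p = 7.7e-05), of Cyp2c68 (76.0 ± 6.18 to 21.3 ± 9.88 FPKM, -1.89) and of Gstm2 (109 ± 25.3 to 38.9 ± 10.4 FPKM, -1.47). The largest rises were those of the retinal dehydrogenase Aldh1a3 (4.21 ± 3.22 to 49.6 ± 20.6 FPKM, log2 fold change 3.35, adjusted p = 0.000687), of Gstm5 (1.77) and of Cyp4f18 (1.12). The pumps Abcc1, Abcc4 and Abcc5 also rose, with log2 fold changes of 0.60, 0.77 and 0.69. PZH went with 0 calls in this list, both against Control (74 tested) and in mice with AOM/DSS (70 tested). The shares of all genes called in these comparisons were 0.00645% and 0.00629%.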

How the data were processed

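RNA was sequenced from the colon of 20 mice, 1 library each, in 4 groups of 5 taken from the labels. Per the submitters' processing notes and methods, the authors checked reads with FastQC 0.11.5 and NGSQC 2.3.3, aligned them to mm10 with HISAT2 2.1.0 and assembled transcripts with StringTie 1.3.3b, and they deposited FPKM per transcript and mouse. The annotation release is not given in the sources used here. FPKM is divided by transcript length and library size, so it holds no counts and a count test was not possible. The authors' own test, which needs counts, was not repeated. Each table lists 118434 transcripts, of which 22252 are assembled and without an Ensembl identifier (12.1 to 14.8% of FPKM, not used here).

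FPKM was summed over the Ensembl transcripts of each gene (symbols from GENCODE M21). Genes that reached 0.5 FPKM in 5 or more of the mice compared were tested on log2(FPKM + 1) with limma 3.58.1 (R 4.3.3, with an intensity trend in the variance, tested on simulated data), as a 2-sided test with Benjamini-Hochberg adjustment over all genes and a threshold of 0.05. Each comparison used its own 10 mice and the interaction all 20. Between low values, 42.3 to 47.8% lay within 0.05 of a whole step, too few to recover reads, so the depth is a rough estimate. Mice, not technical repeats, are the replicates. The members and lists were chosen with earlier results of these data known. Any member may be named. Values per mouse are given for members that passed a test, and of the other pathway genes the 3 largest falls and rises with a mean of at least 2 FPKM are named. The alternatives were a pseudocount of 0.1, no filter, at least 1 FPKM in every mouse, median-of-ratios scaling, epithelial centring, 1 model of all mice, array weights, the leading transcript and leaving out each mouse. Leaving out Control mice 17 and 50 together and centring on 6 epithelial genes were chosen after seeing the data.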

Additional observations from a re-analysis of the deposited data

Results flagged for a closer look

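In 112 sets of 5 mice (28 members in 4 groups), 17 had a highest or lowest mouse whose gap to its nearest neighbour took over 0.71 of the group's range. For independent sets of normal values, chance alone gives about 1 in 20 such sets, or 5.6 here. These members share the same mice and their FPKM were not transformed, so 17 against 5.6 does not test for an excess. In the PZH + AOM/DSS group, mouse 13 stood high for Cyp2c55 (153 FPKM), Sult1a1 (102 FPKM) and Ces2c (109 FPKM). In the same group, mouse 35 stood high for Abcc2 (15.9 FPKM) and Cyp2b10 (2.78 FPKM) and low for Ugt1a7c (21.3 FPKM). Among AOM/DSS mice, mouse 30 stood high for Cyp2f2 (8.98 FPKM) and Fmo5 (5.40 FPKM), and mouse 33 for Ugt2b34 (103 FPKM). Among PZH mice, mouse 46 stood high for Ugt1a1 (33.3 FPKM) and Ugt2b34 (174 FPKM), mouse 53 high for Nr1i2 (23.96 FPKM), mouse 8 low for Gstm3 (38.1 FPKM) and mouse 14 low for Mgst2 (63.2 FPKM). Among Control mice, mouse 48 stood low for Cyp4b1 (1.20 FPKM) and high for Nr1i2 (1.18 FPKM), and mouse 37 stood high for Mgst2 (99.5 FPKM).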

How the results depend on the processing

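The count of called members in AOM/DSS against Control was 26, and 14 with epithelial centring on all 8 markers, which moved the median of all genes to -0.70 and turned Cyp2j6 (-0.49) and Ahr (-0.30) downwards. With single mice left out it was 22 to 27. In PZH against Control it was 0 to 0, and in PZH + AOM/DSS against AOM/DSS 0 to 7. Against Control, PZH + AOM/DSS gave 1 call with no filter, 21 with centring, 12 in 1 model of all mice, 0 without Control mice 17 and 50, and 1 to 8 with single mice left out. Against PZH it gave 1 with no filter, 7 with centring, 7 in 1 model, 1 with the leading transcript, and 0 to 6. The interaction gave 1 with centring, 1 with array weights, and 0 to 4. By fold and unadjusted p, AOM/DSS against Control gave 34 members with centring and 9 to 19 with single mice left out. PZH against Control gave 3 with a pseudocount of 0.1, 3 with centring, 0 in 1 model, 0 with array weights, 0 without Control mice 17 and 50, and 0 to 4. PZH + AOM/DSS against AOM/DSS gave 4 with a pseudocount of 0.1, 0 with at least 1 FPKM in every mouse, 5 with array weights, and 0 to 7. Against Control, PZH + AOM/DSS gave 35 with centring and 7 to 12, and against PZH 31 with centring, 5 with centring on 6 genes, and 5 to 10. The causes of these changes in count were not tested. Centring on all 8 markers used Epcam and Krt8, which are listed at or near 0 in some mice. No paired analysis was possible because the mouse numbers differ between groups. Depth limits members under about 0.5 FPKM.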

Other observations

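Some further genes of the pathway list were lower in AOM/DSS than in Control mice (limma adjusted p under 0.05), and their families were not tested. The sulfotransferase Sult1d1 was 70.9 and 28.7 FPKM in the means of Control and AOM/DSS mice (log2 fold change -1.28), and the aldehyde dehydrogenase Aldh1b1 was 113 and 48.2 FPKM (-1.21). The aldo-keto reductases Akr1c14 (-1.12) and Akr1c19 (-0.97) fell, as did Gstt3 (-1.01). Hnf4a, a nuclear receptor of the intestinal epithelium, fell from 129 to 77.3 FPKM (-0.71). These genes were chosen after their values were seen.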
